A study of Vitis vinifera with 2 samples.

Results

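Runs of 3 adjacent CHH cytosines (H is any base except G) that recurred every 7 bp were located in the methylomes of the autotetraploid grapevine and its diploid parent. A triplet was 3 CHH cytosines at neighbouring positions, and an array was at least 4 triplets whose starts lay exactly 7 bp apart. Only positions were used to find them, among CHH cytosines listed with at least 3 reads in both libraries. The rule gave 288 arrays with 1981 triplets and 5613 cytosines, of 79470581 shared CHH cytosines. The arrays of 10 or more triplets, 36 of the 288, carried most of the reads.

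The ends of most plant chromosomes consist of telomere repeats, tandem copies of a short unit that telomerase adds to the end. In most flowering plants the unit is 7 bp long, and its C-rich strand holds a run of 3 cytosines, all in CHH context. CHH methylation in plants is laid down anew after each replication, through RNA-directed DNA methylation and CMT2, and in the rest of the genome it is the sparsest of the contexts.

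The study compared 4X, an autotetraploid obtained by colchicine treatment of 'Jingyanjing' tissue culture plantlets, with 2X, the diploid Vitis vinifera accession 'Jingyanjing' itself. Whole-genome bisulfite sequencing, in which unmethylated cytosines are converted and read as thymine, was applied to terminal buds pooled from 3 vines per line and collected shortly before the 4X buds abscised. Each line gave 1 library, so there are no replicates, and every difference is between 2 libraries. The 4X file listed 107953697 cytosines at a mean depth of 11.9 reads, and the 2X file listed 109144737 at 12.9 reads. Intervals are 95% Wilson intervals for levels and 95% Newcombe intervals for differences. They cover counting error only, because each line gave 1 library. Those on summed counts are too narrow even for that, since a read counts at each cytosine it crosses. Duplicate copies of a molecule cannot be recognised in these counts either. The letters of the repeat units and the strand were not analysed here, so the arrays are described by spacing, position, level and depth.

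Taken as a pool, the array cytosines were far more methylated and far more deeply read than the other CHH cytosines in both libraries. Their weighted level, the methylated reads over all reads, was 89.6% in 4X (interval 89.62 to 89.68) and 88.8% in 2X (88.80 to 88.88). All other CHH cytosines stood at 2.35% in 4X and at 2.40% in 2X. The array cytosines exceeded the rest by 87.3 percentage points in 4X and by 86.4 points in 2X. Their mean depth was 564 reads in 4X and 479 reads in 2X, against 12.6 and 13.8 reads at the other CHH cytosines of 4X and 2X. The depth was very uneven, since the median array cytosine had 14 reads in 4X and 15 reads in 2X, and the 10 arrays with most reads held 76.1% of the array reads in 4X and 76.9% in 2X. Reads of a repeat found at several places may be assigned to any of its copies, and the effect of this on the depth and level of single arrays was not tested.

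The number of triplets separated arrays of different kinds. The 203 arrays with 4 triplets had a median depth of 7.42 reads in 4X and 8 reads in 2X, and 170 of them were below 10% in both libraries. Their pooled level of 53.2% in 4X and 50.7% in 2X came from a few deep arrays, since the mean of their single-cytosine levels was 9.66% in 4X and 9.71% in 2X. The 49 arrays with 5 to 9 triplets were mixed, with 14 below 10% and 7 at or above 80% in both libraries. Some of the 49 were shifted by 1 bp against a larger array and joined 2 of its highly methylated cytosines with a low neighbour. The intermediate level of those reflects how the rule formed them. All 36 arrays with 10 or more triplets were highly methylated. Their levels ran between 67.1% and 100% in 4X and between 67.0% and 100% in 2X, and 33 of them were at or above 80% in both. The median of these 36 was 98.0% in 4X and 98.4% in 2X, and their mean depths ran between 4.28 and 7004 reads in 4X and between 3 and 6138 reads in 2X. The high level was thus shared by the long arrays but a high depth was not, and 184 of the 288 arrays were below 10% in both libraries. The spacing is that of a telomere repeat, and whether an array is one was not tested. At the edge of the rule, the 4008 runs of exactly 3 triplets just outside it were lower than the arrays of 4 triplets. Their pooled level was 18.5% in 4X and 16.9% in 2X, the mean of their single-cytosine levels was 3.21% in 4X and 3.24% in 2X, and 3578 were below 10% in both libraries.

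**Figure D1:**
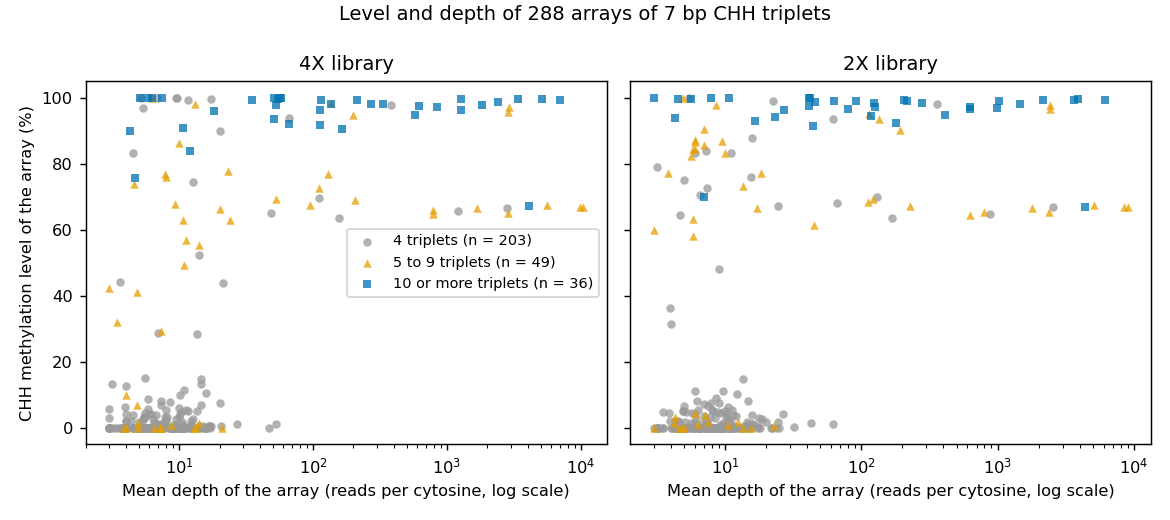
CHH methylation level of each of the 288 arrays (percent) against its mean depth (reads per cytosine, log scale) in the 4X library (left) and the 2X library (right), by number of triplets. Squares, the arrays of 10 or more triplets, lie near the top in both libraries, the band of arrays between 60% and 70% is made mostly of arrays shifted by 1 bp against a larger array, and most arrays of 4 triplets lie near 0%.

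The 7 bp spacing stood apart from other spacings under the same rule. Spacings of 5, 6, 8, 9 and 10 bp gave 214, 277, 140, 147 and 111 arrays, so arrays of a few triplets occurred there too. None of those reached 10 triplets, and the longest had 8. Their weighted levels lay between 1.97% and 10.4% in 4X and between 1.94% and 8.94% in 2X, at mean depths below 12.5 reads in both. The highest of these levels belonged to the 8 bp spacing, in which 98 of 1703 cytosines were also cytosines of the 7 bp arrays. Without those 98 cytosines the 8 bp level was 6.14% in 4X and 5.78% in 2X.

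The array cytosines were few but supplied a visible share of the methylated CHH reads. They made up 0.00706% of the shared CHH cytosines, and 10.7% of the methylated CHH reads in 4X and 8.32% in 2X. A level of at least 90% in both libraries was found at 2328 array cytosines, or 41.5%, against 0.0859% of the other CHH cytosines. Among CHH cytosines of such a level that had 100 or more reads in each library, 1402 of 1615 were array cytosines. With 500 or more reads it was 919 of 963. With 50 or more reads it was 1757 of 3086, and with no further depth limit 2328 of 70563. The array share of these almost fully methylated CHH cytosines thus depended on depth, and they were mostly array cytosines at 100 or more reads.

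The arrays were spread over the assembly, while the long ones lay at few places. Positions are those of the authors' files, whose genome build is not given in the sources used here, so gene annotation was not used. Arrays lay on all 19 chromosomes (254 arrays), on the unplaced sequence named Un (30 arrays), and on sequences named as random parts of chromosomes (4 arrays). Within 50 kb of the smallest or largest listed position of a chromosome lay 53 arrays, at 10 ends of 8 chromosomes. Of the 25 chromosomal arrays with 10 or more triplets, 19 were within 50 kb of an end and 6 were farther inside. The remaining 11 of these long arrays were on Un. The 19 near an end lay at 9 ends, since several long arrays were close neighbours. With arrays at most 1 kb apart joined into loci, 14 chromosomal loci held a long array. Of these 14 loci, 9 were within 50 kb of an end, and 6 more loci were on Un.

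At 2 ends the array reached the very last listed cytosine. On chromosome 1 an array of 76 triplets spanned 23037112 to 23037639, and its level was 94.6% in each line, with 575 reads per cytosine in 4X and 413 in 2X. This pooled level came from its deepest cytosines, since the mean of its single-cytosine levels was 77.6% in 4X and 80.6% in 2X. In the bin at 23037376 to 23037475 inside it, the mean was 55.0% in 4X and 68.8% in 2X. On chromosome 19 an array of 15 triplets spanned 24021750 to 24021850, with levels of 97.7% in 4X and 98.7% in 2X. Others lay very close to an end. The array at 22701533 to 22701654 of chromosome 12 ended 6 bp before the last listed cytosine, with 99.9% in 4X and 98.8% in 2X. The array at 30 to 123 of chromosome 4 began 7 bp after the first listed cytosine, with 99.3% in 4X and 94.1% in 2X. The array at 19818690 to 19818860 of chromosome 11 ended 46 bp before the last listed cytosine, with only 4.28 reads per cytosine in 4X and 4.51 in 2X. A terminal place did not go with a high level in every case. On chromosomes 3 and 14 the arrays nearest to the end had 4 triplets and levels of 2.03% and 13.1% in 4X, and of 2.38% and 7.95% in 2X. On chromosome 10 the array nearest to the low end, at 11318 to 11348, had 5 triplets and stood at 98.0% in 4X and 97.7% in 2X.

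Highly methylated arrays were found away from the ends as well. The longest array of all, with 89 triplets, was on Un at 21135344 to 21135962 and had 99.5% in 4X (interval 99.44 to 99.49) and 99.05% in 2X (99.01 to 99.08). The array with 51 triplets at 36972262 of Un had 97.3% in 4X and 96.5% in 2X. The array of 32 triplets at 710164 to 710383 of chromosome 12, 710110 bp from the nearer end, had 99.6% in 4X and 99.7% in 2X at 5155 and 3874 reads per cytosine. The greatest number of reads of all arrays fell on Un at 39552023 to 39552263, an array of 35 triplets with 99.4% in both 4X and 2X at 7004 and 6138 reads per cytosine. In contrast, the 195 arrays of fewer than 10 triplets inside chromosomes had a mean single-cytosine level of 8.49% in 4X and 9.60% in 2X.

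**Figure D2:**
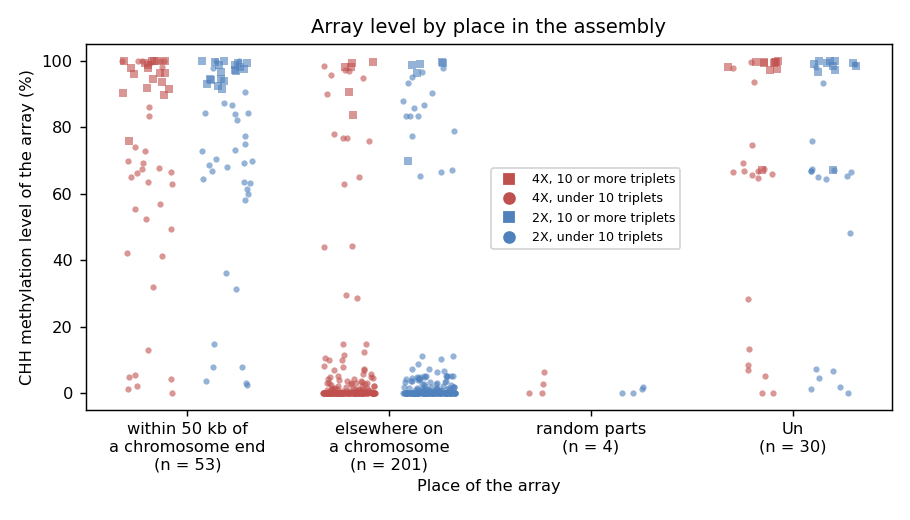
CHH methylation level (percent) of each array by its place in the assembly, with 4X on the left and 2X on the right of each pair; squares are arrays of 10 or more triplets and small circles shorter ones. The 19 long arrays near chromosome ends, the 6 inside chromosomes and the 11 on Un lie at high levels in both libraries, while most of the 195 short arrays inside chromosomes lie near 0%.

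Within the unit, the high counted level belonged to the triplet. A thymine counts as unmethylated whether it came from conversion or from the sequence of another copy, and these were not told apart. In the 33 arrays with 10 or more triplets that overlapped no larger array, the 3 cytosines in order of position had levels of 98.75%, 98.61% and 98.70% in 4X and of 98.78%, 98.64% and 98.72% in 2X, with 847 cytosines at each place. Other CHH cytosines inside these arrays had low pooled levels, and most of them were low singly. At position 7 of the unit, directly below the next triplet, 110 CHH cytosines had 2.11% in 4X, with 2690 reads on average, and 2.02% in 2X, with 2456 reads. At position 4, directly above the triplet, 52 had 4.93% in 4X and 4.08% in 2X, and at position 6 there were 16 with 1.44% in 4X and 2.57% in 2X. The medians over these cytosines were 2.16% in 4X and 2.08% in 2X at position 7, and 10.7% and 8.43% at position 4. Small sets departed from this. At the 7 cytosines of position 7 in arrays nearer to the smallest position the median was 91.7% in 4X and 88.9% in 2X, and at the 6 cytosines of position 4 in arrays nearer to the largest position it was 30.6% in 4X and 58.3% in 2X. No CHH cytosine was listed at position 5, and the arrays held only 1 CHG cytosine and no CG cytosine.

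The arrays shifted by 1 bp show this contrast in largely the same cytosines, so they are not a separate observation. Where a cytosine adjoined the triplets of a long array in 4 or more successive units, the rule formed an additional array from 2 cytosines of each triplet and the adjoining cytosine. There were 17 such arrays against an array of 10 or more triplets. In all 17 the adjoining cytosine was low, between 0.989% and 21.3% in 4X and between 0.991% and 32.1% in 2X. The lower of the 2 shared cytosines was at least 88.1% in 4X and at least 90.3% in 2X. For example, in the shifted array at 39552309 to 39552381 of Un the adjoining cytosine had 2.15% in 4X and 2.09% in 2X, and the shared cytosines had at least 99.5% in 4X and 99.3% in 2X, at about 4080 and 4374 reads per cytosine. The adjoining cytosine lay above the triplet at the low ends of chromosomes 4 and 10 and at 1 array of Un, and below it at the high end of chromosome 3 and at the other arrays of Un. Positions 1 bp apart thus differed by over 60 percentage points in both libraries. These shifted arrays also lowered the pooled level at the first place of the triplet over all 288 arrays, which was 78.7% in 4X and 77.1% in 2X, against 98.1% and 98.0% at the middle place and 96.3% and 96.2% at the last place. In the 251 arrays that overlapped no larger array, the 3 places lay between 97.8% and 97.9% in 4X and between 97.7% and 97.8% in 2X.

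**Figure D3:**
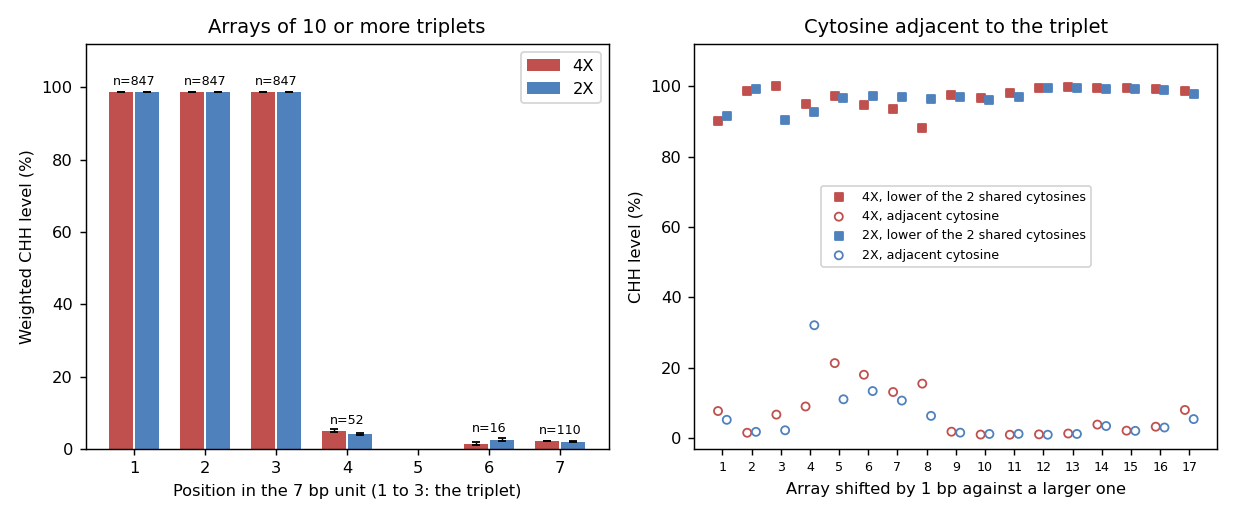
Left, weighted CHH level (percent, with 95% Wilson intervals) at each position of the 7 bp unit in 33 arrays of 10 or more triplets, for 4X and 2X, with the number of cytosines above each pair; positions 1 to 3 are the triplet and lie above 98%, and the other pooled positions lie below 6%. Right, for each of 17 arrays shifted by 1 bp, the level of the adjoining cytosine (open circles, at most 32.1%) and of the lower of the 2 shared triplet cytosines (squares, at least 88.1%).

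Level and depth differed with the distance from the edge of an array. In the same 33 arrays the outermost triplets had 97.2% in 4X and 97.6% in 2X at 363 and 334 reads per cytosine. Triplets that were 11 to 20 triplets away from the nearer edge had 98.9% in 4X and 98.9% in 2X at 2267 and 1848 reads per cytosine. Only 19 arrays were long enough for this distance, and 4 held triplets still farther inside. Those had 97.7% in 4X and 97.6% in 2X at 727 and 572 reads, and the mean of their single-cytosine levels was 88.7% in 4X and 90.4% in 2X.

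Outside the arrays the CHH level dropped within a short distance, whereas CG and CHG methylation continued. Arrays at most 1 kb apart were joined into 207 loci, of which 20 held an array of 10 or more triplets. Beside these 20 loci, the CHH level was 80.8% in 4X and 82.8% in 2X within 50 bp, and it was 18.9% in 4X and 27.7% in 2X at 51 to 100 bp. Beyond 100 bp and up to 200 bp it was 4.04% in 4X and 4.54% in 2X. The depth did not follow the level throughout. It was 21.7 reads in 4X and 20.6 reads in 2X within 50 bp, and 7.78 and 7.49 reads at 51 to 100 bp, so that the sequence beside the arrays was read at ordinary depth. The CG level beside the loci was 84.0% in 4X and 84.5% in 2X within 50 bp, and 79.6% in 4X and 80.04% in 2X between 1000 and 2000 bp. The CHG level was 83.1% in 4X and 88.9% in 2X within 50 bp, and 49.7% and 50.5% between 1000 and 2000 bp. Both exceeded the levels over all shared cytosines of their context, which were 58.9% (4X) and 59.1% (2X) in CG context and 28.1% (4X) and 28.6% (2X) in CHG context. Loci with shorter arrays only had 3.83% CHH in 4X and 3.93% in 2X within 50 bp, with CG at 37.9% and 41.6%.

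**Figure D4:**
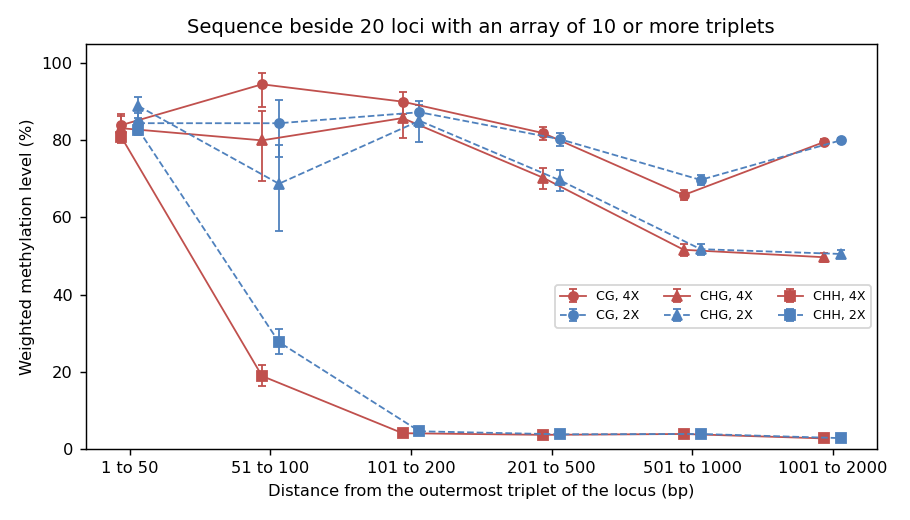
Weighted methylation level (percent, with 95% Wilson intervals) of CG, CHG and CHH cytosines against the distance (bp) from the outermost triplet of the 20 loci with an array of 10 or more triplets, for 4X (solid lines) and 2X (dashed lines). CHH falls below 5% beyond 100 bp, and CG stays above 65% throughout.

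The level of the arrays was compared next between the 4X and 2X libraries. With 1 library per line, an effect of genome duplication cannot be told apart from other differences between them. Over all array cytosines the level was 89.6% in 4X and 88.8% in 2X, a difference of 0.810 percentage points (interval 0.759 to 0.860). The size and the direction of this pooled difference depended on which arrays were pooled. It was 0.394 points in the arrays of 10 or more triplets, 0.122 points in the 251 arrays that overlapped no larger array, -0.002 points in the 39 arrays with no other listed cytosine in their span, and -0.118 points within 50 kb of a chromosome end. The mean of the single-cytosine levels, which gives each cytosine the same weight, was 52.4% in 4X and 53.5% in 2X. In the 36 arrays of 10 or more triplets the differences ran between -18.1 and 20.8 points, with a median of -0.02. Pooled by place over these 36, the difference was 1.15 points at the first place, -0.038 at the middle and -0.024 at the last. In the 33 of them that overlapped no larger array, it was -0.025, -0.036 and -0.025 points. The pooled 0.394 points thus rested on the first place, where shifted arrays add their adjoining cytosines.

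Array by array, few differences exceeded a counting error based on the mean depth. Every read that crosses an array contributes to many of its cytosines, so an interval on the summed counts is too narrow. With summed counts the interval excluded 0 at 23 arrays higher in 4X and 38 lower in 4X. With the counts of an array divided by its number of cytosines, so that its mean depth stands for the number of reads, 2 arrays were higher in 4X, 3 were lower, and 283 did not differ beyond the interval. Neither count was made for other runs of CHH cytosines, so they are not read as a trait of the arrays. More reads than this touch an array longer than a read, so the depth-based interval is too wide for the longest arrays. In the 10 loci with a mean depth of at least 100 reads in both libraries and an array of 10 or more triplets, differences lay between -0.458 and 0.892 points. In the other 10 loci, which were shallower, they lay between -12.8 and 9.66 points.

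The largest differences belonged to shallow arrays. In the array at 187953 to 187997 of chromosome 2, with 7 triplets, 2 or 3 of 7 or 8 reads were methylated at each cytosine in 4X, and 6 of 7 reads at each in 2X. Its levels were 29.4% in 4X and 85.7% in 2X, and the difference of -56.3 points had a depth-based interval of -80.0 to -5.48. The array of 4 triplets at 187911 of the same locus had 28.6% in 4X and 83.3% in 2X at 7 and 6 reads per cytosine. In the opposite direction, the array of 4 triplets at 272 to 295 of chromosome 4 had 100% in 4X and 36.2% in 2X at 6.83 and 3.92 reads, and the array of 20 triplets at 122 to 257 had 99.8% in 4X and 91.3% in 2X. The array of 20 triplets was deeper, with 56.8 reads in 4X and 44.2 reads in 2X, and its difference of 8.47 points had a depth-based interval of 0.07 to 20.4. The third array lower in 4X, with 5 triplets at 3501231 to 3501261 of chromosome 15, had 76.7% in 4X and 90.3% in 2X at 128 and 193 reads per cytosine. The arrays of 4 triplets at 187911 of chromosome 2 and 272 of chromosome 4 and the array at 3501231 of chromosome 15 were named after their values had been seen.

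Other arrays with large differences did not exceed the depth-based interval. The array at 715381 to 715474 of chromosome 7 had 90.7% in 4X and 69.8% in 2X, at 10.7 and 7.02 reads per cytosine. The array at 30260619 to 30260663 of chromosome 14 had 56.8% in 4X and 87.2% in 2X at 11.2 and 5.95 reads. The array at 3501280 to 3501303 of chromosome 15 had 43.9% in 4X and 67.0% in 2X at 21.1 and 24.5 reads. In that last array the level went down along the position in both libraries, with 17 of 33 reads methylated at the first cytosine in 4X and 21 of 27 in 2X, and 3 of 13 at the last cytosine in 4X and 10 of 18 in 2X. At 30260929 to 30260966 of chromosome 14 the levels of 67.9% in 4X and 58.1% in 2X hid a split within the triplet, with 14.6% in 4X and 0% in 2X at the first place and at least 83.3% at the other places in both.

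The tests over the whole CHH context gave different pictures for single cytosines and for bins. With a two-sided Fisher exact test at each cytosine and Benjamini-Hochberg adjustment over all 79470581, 7 cytosines (8.81e-06%) were called at a threshold of 0.05, and 0 of the 5613 array cytosines were. At an unadjusted p under 0.05 there were 181 array cytosines, or 3.22%, against 0.291% of all. Of the 181, 106 were higher and 75 lower in 4X. The shares are not on equal terms. All other CHH cytosines had a median level of 0% in each library, at median depths of 10 reads in 4X and 11 in 2X. At such values this test can seldom reach a p under 0.05. With the Kruskal-Wallis test of cytosine levels in 100 bp bins, 1.05% of 11745942 bins were called after Benjamini-Hochberg adjustment. Of the 399 bins in which at least 50% of the CHH cytosines were array cytosines, 159 (39.8%) were called. They were 67 higher in 4X, where 0.452% of all bins were called, and 92 lower, where 0.602% were. This rank test takes each cytosine as a separate observation although neighbours lie on the same reads, and how far this raised the share in the arrays was not tested.

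The called bins held differences of very unequal size. In 52 of the 159 the level differed by less than 1 percentage point, at a median depth of 657 reads in 4X and 634 reads in 2X. In 49 it differed by at least 10 points, at a median depth of 10.5 reads in 4X and 6.27 reads in 2X, and 37 of these were lower in 4X. The bins of a given array mostly went the same way. All 21 called bins of the 89-triplet array on Un were higher in 4X, by 0.254 to 3.63 points, and all 9 of the array at 122 of chromosome 4 were higher. All 6 called bins of the array at the end of chromosome 1 were lower in 4X, by 4.73 to 13.8 points, although its whole level differed by -0.02 points. The called bins fell in 33 arrays, and overlapping bins of an array are not independent.

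**Figure D5:**
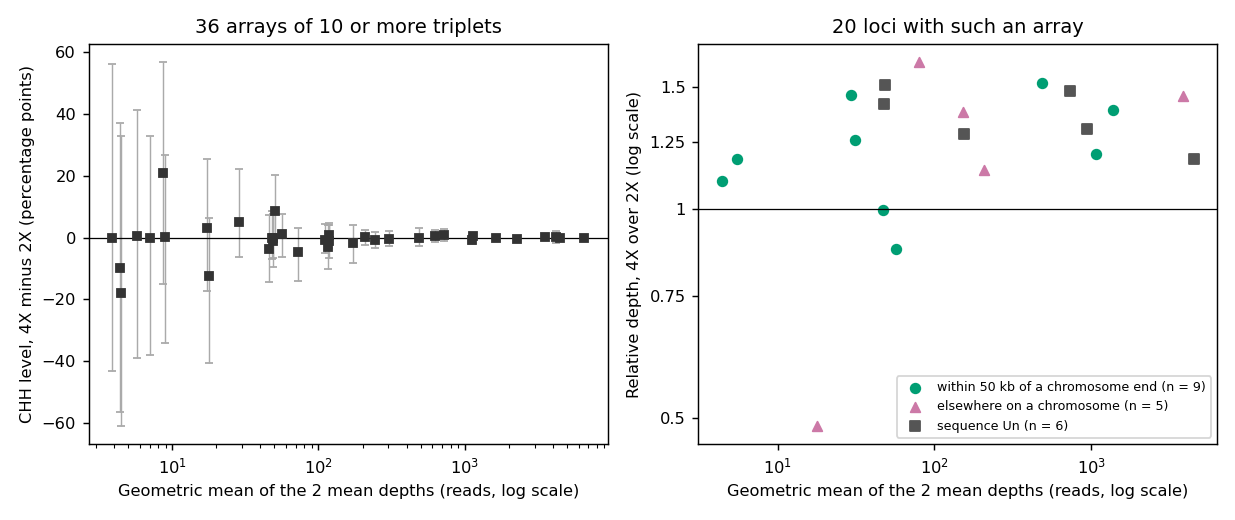
Left, 4X minus 2X difference in CHH level (percentage points) of the 36 arrays of 10 or more triplets against the geometric mean of their mean depths (log scale), with 95% Newcombe intervals in which the mean depth stands for the number of reads; 35 of 36 intervals include 0. Right, relative depth of 4X over 2X (log scale) for the 20 loci with such an array, by place; it is above 1 in 17 loci, including all 10 with at least 100 reads in both libraries.

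The arrays took a larger share of the reads in 4X. Relative depth was the mean depth of array cytosines over that of all other shared CHH cytosines in the same library. It was 44.7 in 4X and 34.7 in 2X, a ratio of 1.29. In the arrays of 10 or more triplets the ratio was 1.30, within 50 kb of a chromosome end 1.34, and without the 10 arrays with most reads 1.32. The ratio over medians, in which the deep arrays weigh no more than the others, was 1.03. The median ratio of single arrays was 1.04 with 4 triplets, 1.27 with 5 to 9 triplets and 1.23 with 10 or more. All 10 loci with at least 100 reads in both libraries had a ratio above 1, between 1.14 and 1.52. Over all 20 loci with a long array it ran between 0.487 and 1.63 and was above 1 in 17. The highest of the deep loci was the array at the end of chromosome 1, with 575 reads per cytosine in 4X and 413 in 2X. The lowest of the 20 was the locus at 5935031 to 5935103 of chromosome 9, with 11.9 reads in 4X and 26.8 reads in 2X and levels of 83.8% and 96.2%.

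Other deep CHH cytosines served as a reference for this ratio. Of 1633 array cytosines with at least 200 reads summed over both libraries, the median ratio was 1.34 (quartiles 1.16 and 1.44). Of 72323 other CHH cytosines with as many reads, the median was 1.05 (0.951 and 1.15), and their level was 1.32% in 4X and 1.27% in 2X. At 1000 or more reads, the median was 1.36 at the array cytosines and 1.04 at 15645 others. These cytosines share reads and lie at few loci, and with 1 library per line a difference between plants cannot be told apart from a difference between library preparations.

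The greater read share also touched the CHH level of the whole context. Over all shared CHH cytosines the level was 2.62% in 4X and 2.61% in 2X, a difference of 0.0168 points (interval 0.0154 to 0.0181). Without the array cytosines it was 2.35% in 4X and 2.40% in 2X, a difference of -0.0467 points (-0.0480 to -0.0454). The sign of the pooled CHH difference was therefore set by 0.00706% of the cytosines.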

How the data were processed

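Whole-genome bisulfite sequencing libraries of 4X and 2X terminal buds were compared, with groups taken from the ploidy in the labels. Per the study's methods, the authors removed low-quality reads and aligned the others to the V. vinifera genome with software written as Bimark, taken here to be Bismark. Not given in the sources used here are its version, the treatment of duplicates and of reads with several matches, the conversion rate and the build. The deposited files list each cytosine with its methylation level as a percent and with whole, unnormalized counts of methylated and unmethylated reads. A cytosine that escaped conversion for any reason counts as methylated. The level equalled the ratio of the counts in every line. In 4X 6 and in 2X 10 cytosines without a context were left out. All listed cytosines had at least 3 reads, in 1282456957 base calls for 4X and 1403178809 for 2X.

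Arrays were found by position. Those overlapping a larger array at another offset were counted as separate arrays, and the 330 cytosines of 2 arrays were counted once in pooled values. Depth-based intervals divided the counts of an array by its number of cytosines. Bins of 100 bp sliding by 25 bp needed at least 2 CHH cytosines. Array search and tests were tried on simulated data. For the tests, reads of chromosome 1 were dealt at random to 2 libraries at each cytosine separately. The site test recovered 87.5% of 200 planted changes and the bin test 95.5% of 200. Reads shared by neighbouring cytosines were not simulated, so this does not bear on that weakness of the bin test. The members, lists and tests were chosen with earlier results of these data known. Arrays named in the text were the 5 with most triplets, the 5 with most reads, the 3 with the largest and the 3 with the smallest 4X minus 2X difference among those with at least 100 reads in each library, and for each chromosome the array nearest to an end within 50 kb. Others illustrate counts. Alternatives changed the number of triplets, the read minimum, the arrays included, the summary of levels and the bin test. Sequence letters, strand and genes were not analysed here. The scripts ran under Python 3.11.15 with numba 0.67.0, pandas 2.3.3, scipy 1.17.1, numpy 2.4.6 and matplotlib 3.10.9.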

Additional observations from a re-analysis of the deposited data

Results flagged for a closer look

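Cytosines listed in only 1 of the files took no part in the comparisons. When the array rule was applied to each file by itself, it gave 418 arrays in 4X and 437 arrays in 2X, of which 39 and 37 had 10 or more triplets. Among their cytosines, 1165 were listed in the 4X file only, with a level of 22.6% (95% interval 21.5 to 23.8) at a mean depth of 4.67 reads. In the 2X file only, 1239 were listed, with a level of 11.2% (10.4 to 12.1) at a mean depth of 4.63 reads. Both levels were above those of the other CHH cytosines, 2.35% in 4X and 2.40% in 2X. That reference is unlike these sets, since its cytosines were listed in both files, at mean depths of 12.6 reads in 4X and 13.8 in 2X. Other CHH cytosines listed in 1 file only were not examined, and neither set was compared between the lines.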

How the results depend on the processing

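There was 1 library per line, and the arrays of few reads allowed no statement on small differences. No paired analysis was possible because 4X and 2X were sequenced as 1 library each. The site test kept 0 array cytosines with at least 10 reads (8 called of 34211965). At an unadjusted p under 0.05 there were then 170 array cytosines, or 5.65%, against 0.440% of all. The bin test called 137 of 427 array bins with a Fisher exact test of summed reads, against 169234 of all 15474020 bins. It called 110 of 335 with at least 10 reads, against 31390 of 8004961. With at least 5 cytosines it called 160 of 394, against 126067 of 11494839. These array counts were all within 1.5 times of 159. The number of arrays was 4296 with at least 3 triplets, 58 with at least 6, 36 with at least 10, 39 with no other listed cytosine, 418 in the 4X file by itself and 437 in the 2X file by itself.

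The level of 4X minus 2X, 0.810 points, was 2.66 with at least 3 triplets, 0.625 with at least 6, 0.394 with at least 10, 0.973 without the array with most reads, 1.17 without the 10 with most reads, 0.423 on assembled chromosomes, 1.76 without the array cytosines above a summed depth of 86 reads (the 99th percentile), 0.784 with at least 5 reads and 0.751 with at least 10 reads. It was 0.122 in arrays overlapping no larger array, an alternative chosen after seeing the data. It changed sign with no other listed cytosine (-0.00186), within 50 kb of a chromosome end (-0.118, chosen after seeing the data) and as a mean of site levels (-1.07). The relative depth of 4X over 2X, 1.29, was 1.32 without the 10 arrays with most reads, 1.26, 1.29 and 1.30 with at least 3, 6 and 10 triplets, 1.37 on assembled chromosomes, 1.34 within 50 kb of an end and 1.23 under 10 triplets (both chosen after seeing the data), and 1.03 with medians. The causes were not tested.

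Arrays minus other CHH cytosines gave 85.1 points in 4X and 83.9 in 2X without the 10 arrays with most reads, 87.7 and 86.9 with at least 10 reads, and 50.005 and 51.04 as means of site levels. The whole-context difference as a mean of site levels was -0.0430 with the arrays, so that its sign changed, and -0.0430 without them. At the first, middle and last place of the triplet, levels without the 10 arrays with most reads were 83.8%, 94.2% and 86.6% in 4X and 82.1%, 93.7% and 85.5% in 2X. With no other listed cytosine they were 97.6%, 97.4% and 97.5% in 4X and 97.6%, 97.4% and 97.5% in 2X. In arrays overlapping no larger array they were 97.9%, 97.8% and 97.9% in 4X and 97.8%, 97.7% and 97.8% in 2X. As means of site levels they were 52.4%, 54.8% and 53.4% in 4X and 53.1%, 55.9% and 54.7% in 2X.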
